A study of Mus musculus with 12 samples.

Results

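Transcripts of 36 proteasome genes were measured in mouse hippocampus by sequencing polyadenylated RNA, out of 24384 genes in the table of counts. The genes were taken by symbol, as every entry named Psma, Psmb, Psmc or Psmd with a number and at least 120 counts summed over the 12 libraries, leaving out the immunoproteasome subunits Psmb8, Psmb9 and Psmb10. The symbols matched 37 genes, of which Psma8, a germ-cell form of an alpha subunit, fell under the count minimum. All 36 were among the 16618 genes that passed the filter on low counts. No measured difference between groups was used to choose them. They comprise 31 subunits of the complex (7 alpha ring, 7 beta ring, 6 ATPase, 3 other base and 8 lid subunits) and 3 chaperones that help to assemble its base. Psmb11, which encodes the thymus form of a catalytic subunit, and Psmc3ip, whose symbol fits the pattern but whose protein acts in meiotic recombination and is no proteasome subunit, complete the 36.

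The proteasome degrades proteins that carry ubiquitin chains. Its barrel-shaped core is built of alpha rings, which gate the entrance, and beta rings, which hold the catalytic sites. A regulatory particle caps the barrel: ATPases in its base unfold the substrate, other base subunits bind ubiquitin, and the lid removes the ubiquitin chain. In neurons the complex takes part in synaptic plasticity and in clearing misfolded proteins, and tau is among its studied substrates.

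The 12 libraries fall into 3 groups of 4. The rTg4510+3TC group are rTg4510 mice treated with lamivudine (3TC), a drug that blocks reverse transcription, the rTg4510 group carry the same transgenes without the drug, and Littermate Controls are their littermates. In rTg4510 mice a mutant human tau gene is switched on by a tetracycline transactivator under the Camk2a promoter, so expression is directed to forebrain excitatory neurons. The sources used here do not give the animals' age, the dose, the length of treatment or the transgenes carried by the littermates. The labels do not state whether every library is a different animal, and p-values therefore reflect variation among libraries, which may be technical. The series title asks how 3TC affects inflammatory gene expression in this model of tauopathy.

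Library totals were 27351630 to 35357415 counts in rTg4510+3TC, 29732904 to 36112922 in rTg4510 and 27286787 to 58173678 in Littermate Controls. Transcripts of Prnp, whose sequence is part of the tau transgene vector, lay at 1537 to 3016 CPM (counts scaled to library size) in rTg4510+3TC and 2249 to 2656 CPM in rTg4510, against 685 to 785 CPM in Littermate Controls. Library codes give the sex (F or M) and a number. Sex-linked counts went against the labelled sex in the littermates F3 and M3, and matched it in the other 10 libraries. General neuronal markers were present in every library (summed level of 6 genes, 5036 to 7289 CPM), and so were those of CA1 pyramidal neurons of the hippocampus (summed level of 4 genes, 361 to 683 CPM). Some libraries also held markers of nearby tissue. Ttr, the main choroid plexus transcript, reached 3907 CPM in rTg4510 M1, 3404 CPM in littermate F1 and 1871 CPM in littermate F3, against 16.3 to 129 CPM elsewhere. The thalamic marker score, the mean log2 deviation of 6 genes from their average over the 12 libraries, was 2.23 in rTg4510+3TC F2. In rTg4510 F3 the striatal score was 1.33, the dentate granule neuron score -3.16, the CA1 score -0.723 and the myelin score -1.14. Littermate M2 had a myelin score of 0.837 and a CA1 score of -0.735. Their part in the values below was tested only by leaving libraries out. In bulk tissue, fewer cells of a type and less RNA per cell cannot be told apart.

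The proteasome genes together held 0.276 ± 0.0108% of all counts in rTg4510+3TC, 0.268 ± 0.00465% in rTg4510 and 0.268 ± 0.00488% in Littermate Controls (SD, n = 4 each). The share ranged from 0.269% to 0.292% in rTg4510+3TC, from 0.263% to 0.273% in rTg4510 and from 0.264% to 0.275% in Littermate Controls. The 3 groups overlapped, and the highest share was that of rTg4510+3TC F2, the library with the highest thalamic score.

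Levels of different genes were compared per length, as CPM per kilobase of annotated exons. Over the 34 subunits and chaperones the median level was 25.1 CPM per kb (mean of 12 libraries). Psmc5, an ATPase of the base, was highest at 99.6 CPM per kb, and Psmd9, a chaperone of the base, lowest at 3.20 CPM per kb. The ATPases had a median level of 47.9 CPM per kb, the beta ring 36.5 and the non-ATPase base subunits 35.1. The alpha ring had a median of 25.0 CPM per kb and the lid 23.0. The 3 chaperones, which act during assembly and are absent from the finished particle, lay at 3.20 to 8.04 CPM per kb, below every one of the 31 subunits on this scale. Within the alpha ring, whose 7 subunits enter the complex in equal number, levels ran from 14.9 (Psma3) to 42.4 CPM per kb (Psma6). In the beta ring they ran from 16.8 (Psmb3) to 53.4 CPM per kb (Psmb6). With the length of the longest transcript in place of all exons, the median of the 34 was 43.7 CPM per kb and the highest gene stood 12.5-fold over the lowest, against 31.1-fold with all exons. On that scale the highest gene was Psmb6 (103.5 CPM per kb) and not Psmc5 (99.6), and the lowest Psmd10 (8.26) and not Psmd9. Levels per length therefore depend on the transcript chosen.

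**Figure D1:**
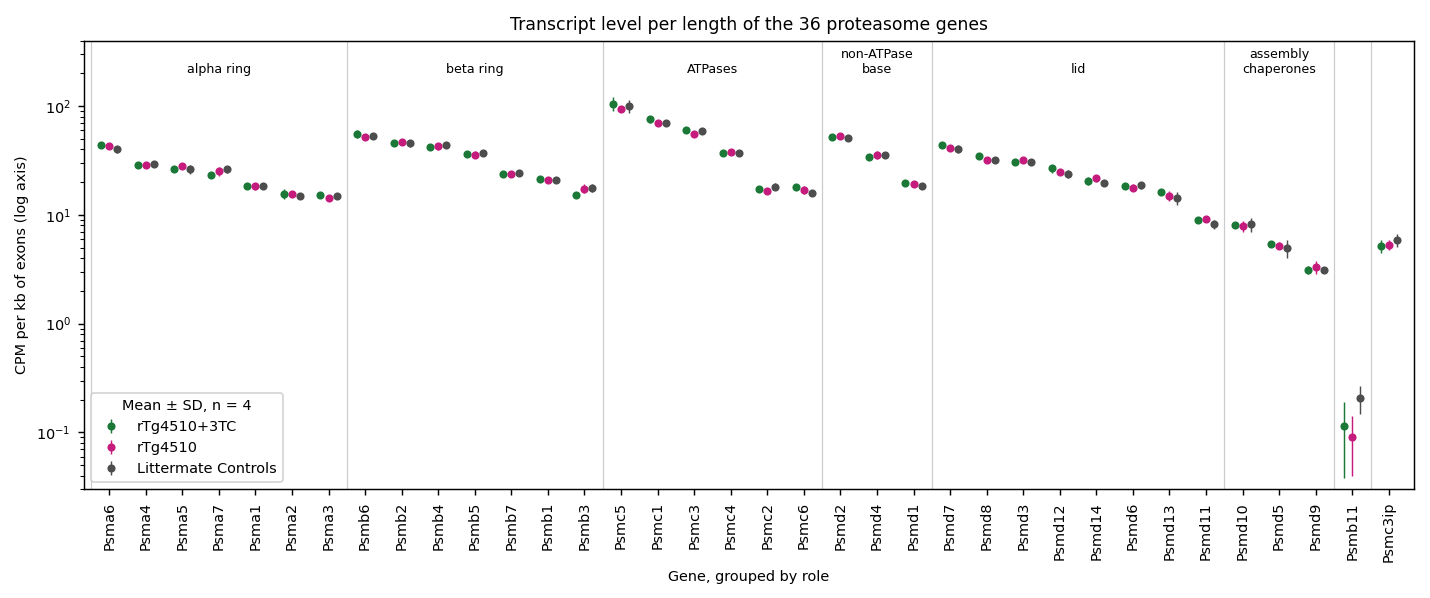
Level of each of the 36 genes per kilobase of exons (log axis) in rTg4510+3TC, rTg4510 and Littermate Controls, with genes grouped by role; points are means and bars SD (n = 4). The 34 subunits and chaperones run from 3.20 to 99.6 CPM per kb with the 3 groups nearly level at each gene, and Psmb11 stands far below.

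The proteasome genes varied little between libraries of a group. The SD of log2 CPM within groups had a median of 0.0894 over the 34 genes, with Psmb7 lowest (0.0446) and Psmd5 highest (0.170). Over all 16618 tested genes the median was 0.241, and 94.5% of genes had a larger SD than the proteasome median. The proteasome genes were also more abundant than the typical tested gene, with a median of 67.7 CPM against 18.1 CPM, and counting error falls with abundance. The part of abundance in the smaller spread was not tested. Comparisons of these genes were correspondingly precise: the 95% interval of a log2 fold change between rTg4510 and Littermate Controls had a median half-width of 0.166 over the 34 genes, against 0.356 over all tested genes.

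No proteasome gene passed the test in any comparison of groups. The effect of the drug is addressed by rTg4510+3TC against rTg4510, which gave 0 of 36 genes with an adjusted p under 0.05, where 0% of all tested genes passed (edgeR quasi-likelihood test, Benjamini-Hochberg over all genes). The difference of the transgenic line is addressed by rTg4510 against Littermate Controls, which gave 0 of 36 genes, where 0.0301% of all genes passed. For rTg4510+3TC against Littermate Controls it was 0 of 36, where 0.0481% of all genes passed, and for both transgenic groups together against Littermate Controls 0 of 36, where 0.0481% passed. DESeq2 and limma-voom also called 0 in each comparison. Comparisons with Littermate Controls share those 4 libraries, and those involving rTg4510 share its 4.

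At an unadjusted p under 0.05, 1 of 36 genes differed between rTg4510+3TC and rTg4510 (Psmb3; 3.82% of all tested genes did so). Between rTg4510 and Littermate Controls it was 0 of 36 (5.24% of all genes), and for both transgenic groups together 0 of 36 (8% of all genes). Between rTg4510+3TC and Littermate Controls it was 2 of 36 (Psmb3 and Psma7; 8.59% of all genes). DESeq2 gave 1 to 3 genes at this unadjusted threshold and limma-voom 1 to 3, depending on the comparison. The share of all genes was not taken for these tools, so their counts have no background. The groups did not overlap for 1 of 36 genes between rTg4510+3TC and rTg4510 (Psmc3; 2.46% of all genes), 0 of 36 between rTg4510 and Littermate Controls (3.89% of all genes), 2 of 36 between rTg4510+3TC and Littermate Controls (Psmb3 and Psmd8; 5.86% of all genes) and 0 of 36 for both transgenic groups against Littermate Controls (1.31% of all genes). The edgeR and non-overlap counts were thus near or under the shares of all genes.

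The fitted changes were small. Over the 34 subunits and chaperones, log2 fold changes ran from -0.20 to 0.17 in rTg4510+3TC against rTg4510, from -0.12 to 0.15 in rTg4510 against Littermate Controls and from -0.23 to 0.19 in rTg4510+3TC against Littermate Controls. For all 34 genes and each comparison the 95% interval lay within ±0.5 on the log2 scale, so that a difference beyond 41.4% upward was outside every interval. The intervals of 29, 28 and 25 of the 34 genes lay within ±0.3 in the same 3 comparisons. The median log2 fold change over all 36 genes was 0.03 in rTg4510+3TC against rTg4510 (23 of 36 above 0), -0.01 in rTg4510 against Littermate Controls (17 of 36) and 0.02 in rTg4510+3TC against Littermate Controls (22 of 36). The median over all tested genes was -0.0005, -0.0014 and -0.0040 in these comparisons. The median size of change, regardless of direction, was 0.055, 0.065 and 0.067 for the proteasome genes in these comparisons, and 0.124, 0.127 and 0.147 for all tested genes.

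**Figure D2:**
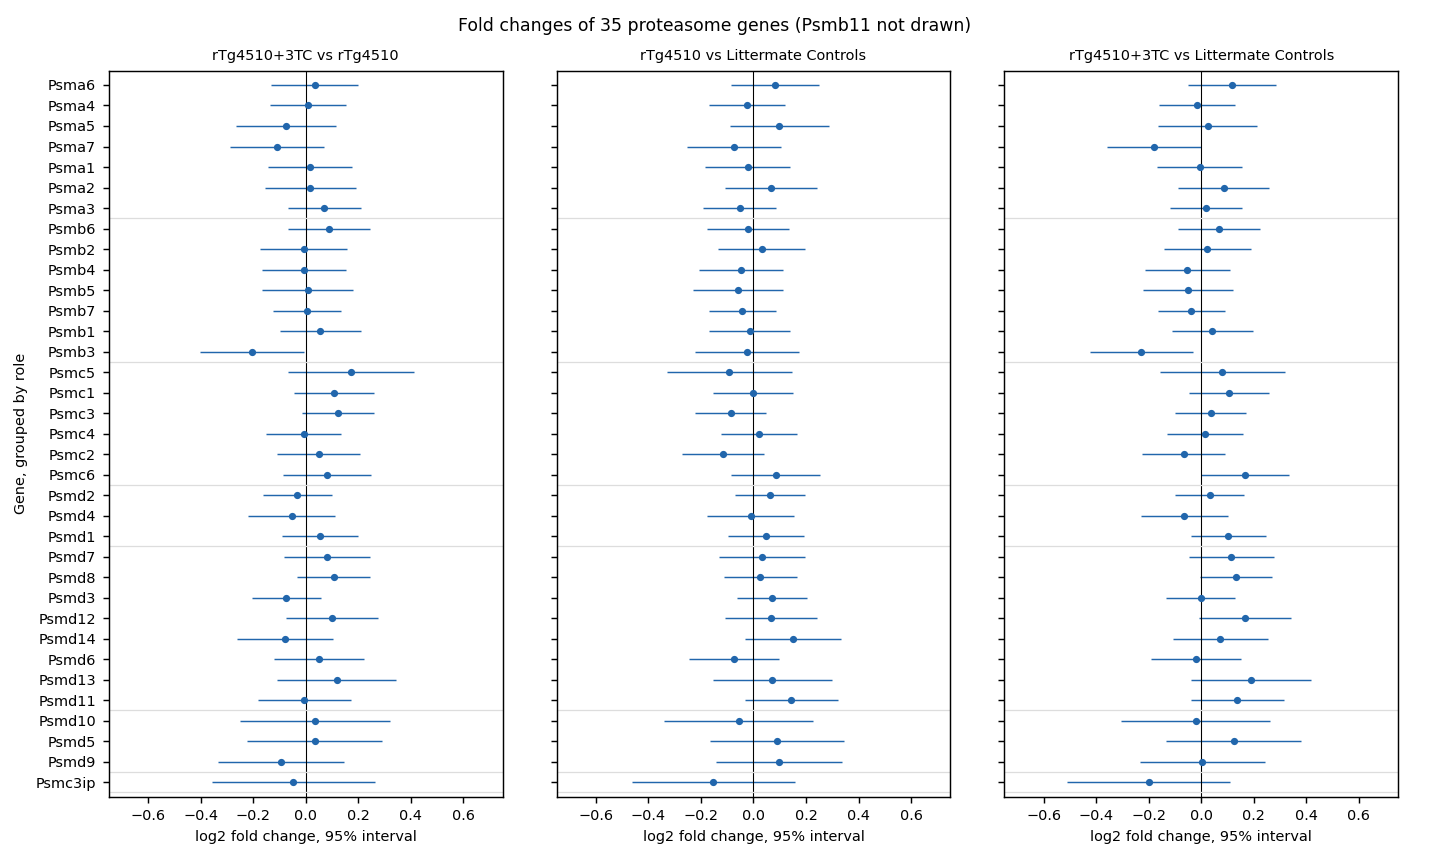
Log2 fold changes of 35 proteasome genes with 95% intervals (edgeR), for rTg4510+3TC against rTg4510, rTg4510 against Littermate Controls and rTg4510+3TC against Littermate Controls; Psmb11, with intervals wider than the axis, is left out. The intervals hold 0 for all but Psmb3 in rTg4510+3TC against rTg4510 and Psmb3 and Psma7 in rTg4510+3TC against Littermate Controls.

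Promoter sequences, from 250 bases before to 50 after the start of the gene (RefSeq, GRCm38.p6), were found for 30 of the 36 genes. Psmb1, Psmb2, Psmb7, Psmc3, Psmd3 and Psmd7 had none and were not searched. The core TGACNNNGC of the antioxidant response element, which Nfe2l1 and its relative Nfe2l2 bind, was searched on both strands and occurred in 5 of the 30 genes (16.7%: Psmb5, Psmb6, Psmc6, Psmd12 and Psmd9), against 14.0% of 27025 genes. The box CCAAT occurred in 13 of 30 (43.3%), against 41.1% of all genes, and GGGCGG in 18 of 30, against 38.2%. Of these 5, the promoters of the catalytic subunits Psmb5 and Psmb6 are shown, since Nfe2l1 is a known regulator of the gene family. That of Psmc6 is shown as an example of a match farther from the start. Capitals mark the match, and Psmc6 has it as the reverse complement.
Psmb5, chr14:54617946-54618245, minus strand: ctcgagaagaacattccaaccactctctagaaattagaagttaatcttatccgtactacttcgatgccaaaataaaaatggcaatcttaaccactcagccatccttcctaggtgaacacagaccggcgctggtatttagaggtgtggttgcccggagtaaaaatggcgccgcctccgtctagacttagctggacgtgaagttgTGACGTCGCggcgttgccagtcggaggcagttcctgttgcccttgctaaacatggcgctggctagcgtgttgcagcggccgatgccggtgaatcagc
Psmb6, chr11:70525107-70525406, plus strand: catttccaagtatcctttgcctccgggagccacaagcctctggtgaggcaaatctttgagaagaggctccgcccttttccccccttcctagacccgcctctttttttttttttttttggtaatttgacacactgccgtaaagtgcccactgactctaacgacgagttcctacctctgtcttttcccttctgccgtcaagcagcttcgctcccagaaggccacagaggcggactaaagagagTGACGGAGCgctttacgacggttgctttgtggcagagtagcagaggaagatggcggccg
Psmc6, chr14:45329574-45329873, plus strand: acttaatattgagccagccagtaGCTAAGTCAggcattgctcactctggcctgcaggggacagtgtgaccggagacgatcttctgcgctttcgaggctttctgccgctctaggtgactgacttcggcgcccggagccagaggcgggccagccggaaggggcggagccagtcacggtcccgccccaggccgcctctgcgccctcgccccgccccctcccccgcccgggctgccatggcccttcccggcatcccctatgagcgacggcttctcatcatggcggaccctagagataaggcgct
In Psmb5 and Psmb6 the match lies close to the start of the gene, and in Psmc6 near the far end of the window.

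The catalytic subunits of the beta ring were nearly level across groups. In all per-library values that follow, libraries stand in the order F2, F3, M2, M3 for rTg4510+3TC, F2, F3, M1, M3 for rTg4510 and F1, F3, M2, M3 for Littermate Controls. Psmb5, which carries the chymotrypsin-like activity (chr14:54614119-54618022, mm10, minus strand), had 31.7, 34.9, 32.2 and 31.0 CPM in rTg4510+3TC, 33.1, 28.7, 34.3 and 33.0 CPM in rTg4510, and 33.5, 33.0, 33.3 and 34.6 CPM in Littermate Controls. The 3 groups overlapped, with rTg4510 F3 lowest. Its log2 fold change was 0.01 ± 0.08 (SE) in rTg4510+3TC against rTg4510, and -0.06 ± 0.08 in rTg4510 against Littermate Controls.

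Psmb6, the caspase-like subunit (chr11:70525367-70527858), had 114, 102, 93.5 and 105 CPM in rTg4510+3TC, 95.9, 93.4, 102 and 99.0 CPM in rTg4510, and 95.8, 94.7, 102 and 103 CPM in Littermate Controls. The groups overlapped, and the highest value was that of rTg4510+3TC F2. Its log2 fold change was 0.09 ± 0.07 in rTg4510+3TC against rTg4510 and -0.02 ± 0.07 in rTg4510 against Littermate Controls. Psmb7, the trypsin-like subunit (chr2:38588036-38644087), had 82.2, 78.0, 83.4 and 81.1 CPM in rTg4510+3TC, 79.0, 80.0, 80.0 and 84.6 CPM in rTg4510, and 87.2, 80.7, 82.2 and 83.2 CPM in Littermate Controls. This was the steadiest of the 34 genes, with log2 fold changes of 0.00 ± 0.06 in rTg4510+3TC against rTg4510 and -0.04 ± 0.06 in rTg4510 against Littermate Controls. Of the exon bases of Psmb7, 11.8% overlap Nek6 on the other strand, and the strand setting of the counting is not given.

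Psmb3, a beta subunit without a catalytic site (chr11:97703399-97713500), had the lowest p among the proteasome genes in both comparisons of the treated group. It had 32.5, 35.8, 35.5 and 36.1 CPM in rTg4510+3TC, 34.7, 42.3, 42.2 and 41.9 CPM in rTg4510, and 38.3, 38.3, 46.0 and 41.1 CPM in Littermate Controls. The treated libraries lay below all 4 littermates, and rTg4510 F2 lay within the treated range. The log2 fold change was -0.20 ± 0.09 against rTg4510 (unadjusted p = 0.0446, adjusted p = 0.9998) and -0.23 ± 0.09 against Littermate Controls (unadjusted p = 0.0269, adjusted p = 0.528, edgeR). For rTg4510 against Littermate Controls it was -0.02 ± 0.09. The beta ring as a whole had 4 of 7 genes above 0 in rTg4510+3TC against rTg4510, 1 of 7 in rTg4510 against Littermate Controls and 3 of 7 in rTg4510+3TC against Littermate Controls.

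Psma7, an alpha ring subunit (chr2:180036374-180042433), had 74.0, 76.0, 70.8 and 65.5 CPM in rTg4510+3TC, 72.8, 76.1, 73.0 and 86.9 CPM in rTg4510, and 80.6, 74.0, 88.8 and 81.3 CPM in Littermate Controls. The groups overlapped. Its log2 fold change was -0.11 ± 0.08 in rTg4510+3TC against rTg4510 and -0.18 ± 0.08 in rTg4510+3TC against Littermate Controls (unadjusted p = 0.0475, adjusted p = 0.576). The other 6 alpha subunits had fold changes of at most 0.12 on the log2 scale in every one of the 3 comparisons. The alpha ring median was 0.02 in rTg4510+3TC against rTg4510, -0.02 in rTg4510 against Littermate Controls and 0.02 in rTg4510+3TC against Littermate Controls.

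Among the 6 ATPases, 5 had a positive log2 fold change in rTg4510+3TC against rTg4510, with a class median of 0.09, and 2 in rTg4510 against Littermate Controls, with a median of -0.04. Psmc3 (chr2:91054009-91066369) had 151, 159, 165 and 159 CPM in rTg4510+3TC, 148, 150, 136 and 147 CPM in rTg4510, and 160, 148, 159 and 151 CPM in Littermate Controls. The treated libraries stood above all 4 of rTg4510, by 0.12 ± 0.06 on the log2 scale (unadjusted p = 0.0720, adjusted p = 0.9998, edgeR), and overlapped the littermates. Psmc3 shares 8.25% of its exon bases with Slc39a13 on the other strand.

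Psmc6 (chr14:45329788-45349705) had 66.0, 59.1, 62.8 and 63.5 CPM in rTg4510+3TC, 54.6, 66.2, 58.4 and 58.3 CPM in rTg4510, and 52.2, 59.7, 53.9 and 58.2 CPM in Littermate Controls. The treated group and the littermates overlapped at a single pair of libraries. The log2 fold change between them was 0.17 ± 0.08 (adjusted p = 0.590, edgeR). Psmc2 had 88.7, 84.0, 86.0 and 90.4 CPM in rTg4510+3TC, 79.8, 90.1, 80.8 and 86.6 CPM in rTg4510, and 87.9, 100.4, 84.5 and 92.9 CPM in Littermate Controls, with a log2 fold change of -0.12 ± 0.07 in rTg4510 against Littermate Controls.

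Psmc5, the gene with the highest level per length of all exons, had 178, 135, 132 and 143 CPM in rTg4510+3TC, 129, 138, 129 and 125 CPM in rTg4510, and 131, 123, 166 and 136 CPM in Littermate Controls. Its highest values were those of rTg4510+3TC F2, with thalamic markers, and littermate M2, with high myelin markers, and its spread was the third largest of the 34 (SD 0.162, log2). The mean log2 deviation of the 6 ATPases from their 12-library average was 0.12 in rTg4510+3TC F2 and 0.00 to 0.05 in the other 3 treated libraries, against -0.08 to 0.03 in rTg4510 and -0.05 to 0.05 in Littermate Controls. Whether the tissue markers account for this was not tested.

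The remaining base subunits include Psmd4, a ubiquitin receptor (chr3:95032694-95042614). It had 103, 91.7, 93.0 and 95.5 CPM in rTg4510+3TC, 96.2, 98.8, 91.3 and 112 CPM in rTg4510, and 98.0, 94.7, 108 and 100.4 CPM in Littermate Controls. The groups overlapped, with log2 fold changes of -0.05 ± 0.08 in rTg4510+3TC against rTg4510 and -0.01 ± 0.08 in rTg4510 against Littermate Controls. Psmd1 and Psmd2, the large scaffold subunits of the base, had log2 fold changes between -0.03 and 0.10 in the 3 comparisons. Psmd2 was, after Psmb7, the steadiest gene (SD 0.0502, log2).

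Most lid genes shared a direction against Littermate Controls. Log2 fold changes were above 0 for 7 of 8 lid genes in rTg4510 against Littermate Controls (median 0.07), for 6 of 8 in rTg4510+3TC against Littermate Controls (median 0.12) and for 5 of 8 in rTg4510+3TC against rTg4510 (median 0.07), and none passed the test. Of all tested genes, 49.8%, 49.1% and 49.8% lay above 0 in these comparisons. The mean log2 deviation of the 8 lid genes from their 12-library average was 0.05, 0.01, 0.06 and 0.07 in rTg4510+3TC, 0.00, 0.04, -0.07 and 0.06 in rTg4510, and -0.04, -0.10, -0.02 and -0.06 in Littermate Controls. All 4 treated libraries lay above all 4 littermates, and rTg4510 overlapped both. Among the role classes only the lid had this arrangement. Of single tested genes, 5.86% did not overlap between these 2 groups, in either direction. No such share was taken for means over 8 genes, so the lid score has no background. The astrocyte marker score (5 genes) had the same arrangement, with -0.02 to 0.28 in rTg4510+3TC, -0.43 to 0.24 in rTg4510 and -0.17 to -0.12 in Littermate Controls, while the summed level of these markers was 1643 to 2586 CPM in rTg4510+3TC, 1317 to 2541 CPM in rTg4510 and 1645 to 1722 CPM in Littermate Controls. Of the 5 markers, Gfap, picked after its values were seen, had the largest fold change between rTg4510+3TC and Littermate Controls (938 ± 378 against 381 ± 70.3 CPM, log2 fold change 1.30 ± 0.42, adjusted p = 0.415, edgeR) and 0 passed the test. The others did not move together, with log2 fold changes of 0.41 (Aqp4), 0.03 (Gja1), 0.003 (Aldh1l1) and -0.13 (Slc1a3). Scores of microglia and myelin overlapped between these groups. The part of astrocyte RNA in the lid score was not tested. Genes of a class share these libraries, so their common direction is no independent repetition. The lowest value came from littermate F3. Ttr was high in littermates F3 and F1 and in rTg4510 M1, and the part of choroid plexus RNA in the lid score was not tested.

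**Figure D3:**
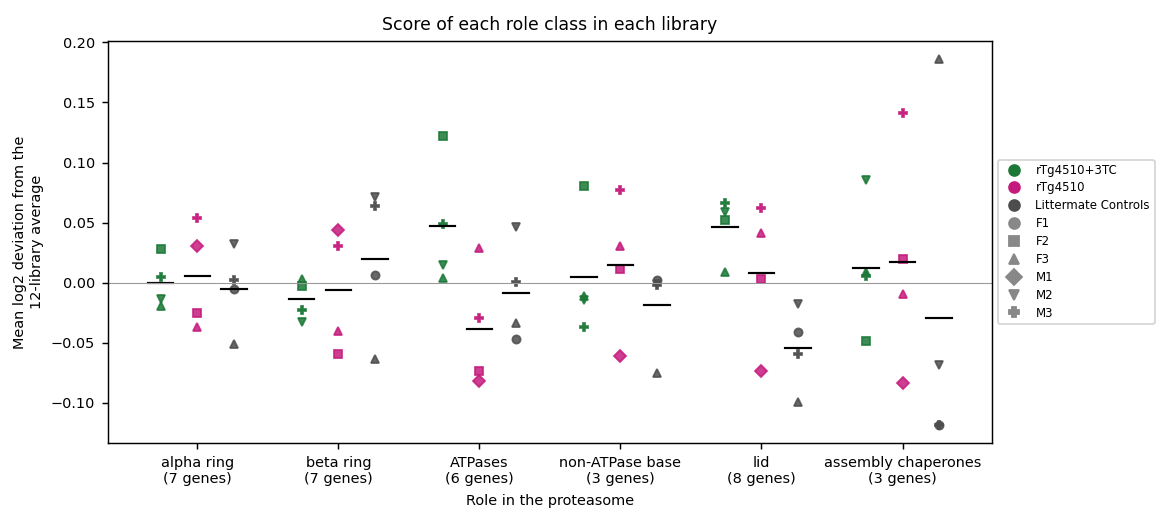
Mean log2 deviation of each role class from its 12-library average, 1 symbol per library (shape gives the library code, colour the group; black bars are group means, groups run rTg4510+3TC, rTg4510, Littermate Controls from left to right). All library scores lie between -0.12 and 0.19; the lid is the class in which rTg4510+3TC (0.01 to 0.07) and Littermate Controls (-0.10 to -0.02) do not overlap.

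Psmd14 encodes the deubiquitinase that cuts the ubiquitin chain from the substrate (chr2:61711694-61800376). It had 51.2, 60.9, 59.7 and 61.7 CPM in rTg4510+3TC, 63.7, 61.8, 55.3 and 65.8 CPM in rTg4510, and 56.4, 58.2, 57.1 and 50.3 CPM in Littermate Controls. The groups overlapped, since rTg4510 M1 lay within the littermate range. The log2 fold change was -0.08 ± 0.08 in rTg4510+3TC against rTg4510 and 0.15 ± 0.08 in rTg4510 against Littermate Controls (adjusted p = 0.965, edgeR).

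Psmd8, a structural lid subunit (chr7:29174188-29180701), had 107, 103, 110.0 and 105 CPM in rTg4510+3TC, 103, 99.4, 89.7 and 102 CPM in rTg4510, and 98.0, 94.4, 96.3 and 98.8 CPM in Littermate Controls. All treated libraries stood above all littermates, with a log2 fold change of 0.13 ± 0.06 (unadjusted p = 0.0582, adjusted p = 0.603, edgeR). Against rTg4510 the fold change was 0.11 ± 0.06 and the groups overlapped. Psmd11, a scaffold subunit of the lid (chr11:80428615-80473248), had 58.8, 55.0, 60.9 and 56.6 CPM in rTg4510+3TC, 61.1, 58.8, 53.8 and 58.4 CPM in rTg4510, and 57.3, 45.5, 51.6 and 55.8 CPM in Littermate Controls. Its groups overlapped, with log2 fold changes of 0.14 ± 0.08 in rTg4510 against Littermate Controls and 0.14 ± 0.07 for both transgenic groups together (adjusted p = 0.676, edgeR). Its lowest library was littermate F3.

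**Figure D4:**
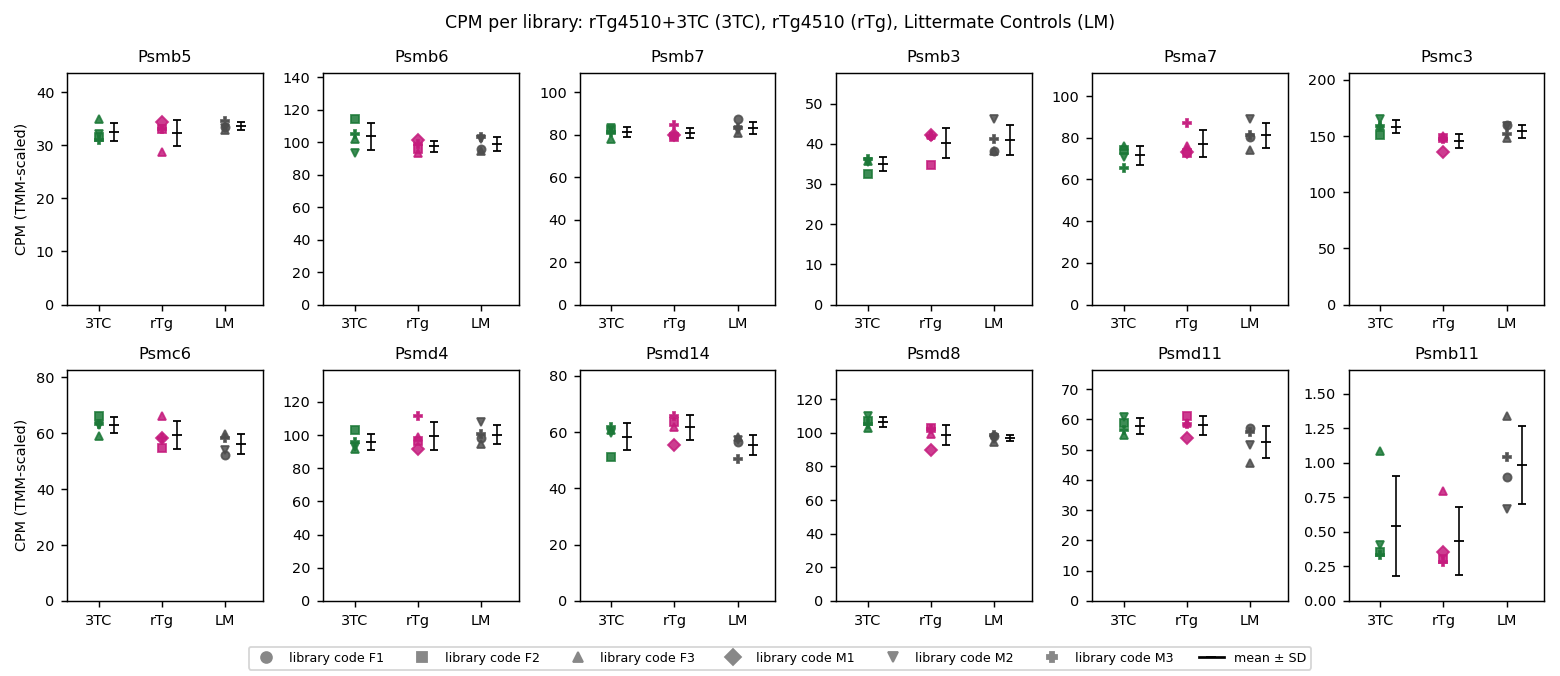
CPM of 12 named proteasome genes in each library of rTg4510+3TC (3TC), rTg4510 (rTg) and Littermate Controls (LM); shapes give the library code, black bars the mean ± SD (n = 4), and each axis starts at 0. For 11 of the genes the groups lie close together; Psmb11, near 1 CPM or below, is the exception, with the F3 library highest in each group.

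The 3 assembly chaperones were the most variable class between replicates, with SDs of 0.145 (Psmd9), 0.162 (Psmd10) and 0.170 (Psmd5) on the log2 scale. Psmd9 and Psmd10 were also the least abundant of the 34 by CPM, while Psmd5 was above Psmb5 in every group mean, and Psmd9 shares 25.5% of its exon bases with a noncoding gene on the other strand. Their log2 fold changes lay between -0.09 and 0.12 in the 3 comparisons, and none passed the test. Psmd5, which holds base intermediates apart from the core, averaged 38.7 ± 2.12 CPM in rTg4510+3TC, 37.8 ± 2.62 CPM in rTg4510 and 35.6 ± 6.82 CPM in Littermate Controls (SD, n = 4 each).

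Psmb11 stood apart in level and in size of change. Expressed in cortical epithelial cells of the thymus, it lies next to Psmb5, 3411 bases away on chromosome 14 and on the opposite strand (chr14:54621433-54629556). Its level was 0.137 CPM per kb, against 3.20 for the lowest subunit or chaperone. It had 0.357, 1.09, 0.402 and 0.330 CPM in rTg4510+3TC, 0.305, 0.798, 0.354 and 0.281 CPM in rTg4510, and 0.899, 1.34, 0.665 and 1.04 CPM in Littermate Controls. The F3 library was the highest of each group, and the groups overlapped.

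The log2 fold change of Psmb11 was -1.17 ± 0.57 in rTg4510 against Littermate Controls (unadjusted p = 0.0607, adjusted p = 0.956, edgeR), -0.85 in rTg4510+3TC against Littermate Controls and -1.01 ± 0.47 for both transgenic groups together (adjusted p = 0.636). For rTg4510+3TC against rTg4510 it was 0.32. None of these passed. The values rest on 9 to 52 reads per library. Psmc3ip, the gene that is no subunit, averaged 9.33 ± 1.26 CPM in rTg4510+3TC, 9.64 ± 1.02 CPM in rTg4510 and 10.7 ± 1.44 CPM in Littermate Controls, and 21.2% of its exon bases overlap Mlx.

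Genes that work with the proteasome did not pass the test either: of 38 tested, 0 rose and 0 fell in each comparison. At an unadjusted p under 0.05 there were 2 of 38 in rTg4510+3TC against rTg4510 (5.26%, where 3.82% of all tested genes did so) and 2 of 38 in rTg4510 against Littermate Controls (5.26%, against 5.24% of all genes). In rTg4510+3TC against Littermate Controls there were 6 of 38 (15.8%, against 8.59% of all genes), and for both transgenic groups together 3 of 38 (7.89%, against 8% of all genes). Their median log2 fold change was 0.02, 0.06 and 0.06 in these comparisons. The polyubiquitin gene Ubb had 101, 99.8, 96.6 and 107 CPM in rTg4510+3TC, 91.7 to 107 CPM in rTg4510 and 85.9, 92.4, 79.1 and 90.9 CPM in Littermate Controls (0.21 ± 0.07 in rTg4510+3TC against Littermate Controls, adjusted p = 0.441, edgeR). All 4 treated libraries lay above all 4 littermates. Of all tested genes, 5.86% did not overlap between these groups, in either direction. Ubb was picked from the 38 by its small p, and those of the 38 without overlap were not counted.

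Psme4, an activator that caps the core in place of the regulatory particle, averaged 40.2 ± 3.02 CPM in rTg4510+3TC and 47.8 ± 2.78 CPM in rTg4510 (-0.25 ± 0.08, adjusted p = 0.9998, edgeR). All 4 treated libraries lay below all 4 of rTg4510. Of all tested genes, 2.46% did not overlap between these groups, in either direction, and Psme4 too was picked by its small p. Psme2, a subunit of the interferon-inducible activator, averaged 17.1 ± 1.56 CPM in rTg4510 and 14.1 ± 0.838 CPM in Littermate Controls (0.28 ± 0.10, adjusted p = 0.945). Of the immunoproteasome subunits, which replace the catalytic beta subunits under interferon, Psmb8 averaged 3.60 ± 0.708 CPM in rTg4510+3TC, 2.89 ± 0.439 CPM in rTg4510 and 2.76 ± 1.05 CPM in Littermate Controls. Psmb9 averaged 2.24 ± 0.567 CPM in rTg4510+3TC, 1.81 ± 0.303 CPM in rTg4510 and 1.64 ± 0.80 CPM in Littermate Controls. Psmb10, the most abundant of the 3 by CPM, averaged 24.1 ± 2.58 CPM in rTg4510+3TC, 26.3 ± 5.17 CPM in rTg4510 and 28.3 ± 9.01 CPM in Littermate Controls. None of the 3 passed the test in any comparison. The transcription factor Nfe2l1, which drives proteasome genes when proteasome activity falls, averaged 398 ± 29.7 CPM in rTg4510+3TC, 393 ± 36.9 CPM in rTg4510 and 367 ± 16.9 CPM in Littermate Controls, with no comparison past the test. The 5 genes with the antioxidant response core had log2 fold changes of -0.05 ± 0.08 (Psmb5), 0.07 ± 0.07 (Psmb6), 0.17 ± 0.08 (Psmc6), 0.17 ± 0.08 (Psmd12) and 0.00 ± 0.11 (Psmd9) in rTg4510+3TC against Littermate Controls. In rTg4510+3TC against rTg4510 they ran from -0.09 (Psmd9) to 0.10 (Psmd12), and in rTg4510 against Littermate Controls from -0.06 (Psmb5) to 0.10 (Psmd9). None passed the test.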

How the data were processed

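Polyadenylated hippocampal RNA was sequenced from TruSeq libraries, per the labels' protocols. The authors deposited unnormalised read counts, 1 value per gene and library, for 12 libraries. STAR, DESeq2 and mm10 are named, with no version or role, per the submitters' processing notes. Annotation, strand setting and filters: not given in the sources used here. Reads of genes that overlap on opposite strands, and of near-identical copies (processed pseudogenes of Psmb5, Psmb6 and Psmb7 are annotated), therefore cannot be told apart. Entries carrying dates in place of symbols (27 of 24411, 0.285% to 0.363% of counts) were left out of normalisation and tests.

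Genes were filtered with filterByExpr (minimum count 10, minimum total 15), scaled by TMM and fitted over all 12 libraries with group as the only term in edgeR 4.0.16 (R 4.3.3), with the quasi-likelihood test and Benjamini-Hochberg adjustment over all tested genes. Labelled sex was an alternative, since sex-linked counts of 2 littermates go against it. CPM use TMM-scaled totals, and 3 counts equal 0.0519 to 0.110 CPM. Class scores use log2 CPM with a prior count of 2. Positions and lengths came from GENCODE M21 (mm10), which matched all 36 genes. Replicates differed by more than counting noise (chi-square per gene 16.6 or more).

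Values are given by library for the catalytic subunits, Psmd4 and Psmd14. They are also given for Psmc5 and Psmb11, the highest and lowest of the 36 genes per length of all exons. The same holds, for each comparison, for the 2 genes with the smallest p in each direction. Psmd5, Psmc3ip, Psmb8, Psmb9, Psmb10 and Nfe2l1 were added as group means. From the related genes the 2 with the smallest p per comparison are named, except that a few of them are not reported here. The members, lists and rules were chosen with earlier results of these data known. The procedure was tested on simulated counts. The planted changes were larger than any fitted for the subunits and chaperones, so that test says nothing on changes of their size. Alternatives were DESeq2 1.42.0, limma-voom (limma 3.58.1), other scalings and filters, labelled sex, the library code as a block, fewer libraries and leaving out each library.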

Additional observations from a re-analysis of the deposited data

Results flagged for a closer look

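Of 150 groups of 4 libraries examined (each gene and class score in each group), 7 held a library whose gap to the nearest other exceeded Dixon's 95% critical value, where chance gives about 7.5. Psmb11 stood at 1.09 CPM in rTg4510+3TC F3, against 0.330 to 0.402 CPM in the other 3 treated libraries, and at 0.798 CPM in rTg4510 F3, against 0.281 to 0.354 CPM. Psmb3 was low in the F2 library of both transgenic groups, at 32.5 CPM in rTg4510+3TC F2 (others 35.5 to 36.1 CPM) and 34.7 CPM in rTg4510 F2 (others 41.9 to 42.3 CPM). Psmc3ip reached 11.2 CPM in rTg4510+3TC F3, against 8.51 to 8.81 CPM. In littermate F3 the assembly chaperone score was 0.19 (others -0.12 to -0.07) and the score of the non-ATPase base subunits was -0.0753 (others -0.0016 to 0.0024). Littermate F3 is high in Ttr and has sex-linked counts that go against its label; the part of either in these scores was not tested.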

How the results depend on the processing

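Under the alternatives (22 or 23 per comparison), 0 proteasome genes were called in all 91 refits, with 0 to 5 genes at an unadjusted p under 0.05. The share of all genes at that threshold was not taken in the refits. Of 751 recomputed fold changes of 33 named results, 734 kept their direction and 17 turned, all of them of results with a main value between -0.0537 and 0.0071. Deviations of the 8 same-code pairs correlated at -0.246 to 0.0504, which gave no sign that the library codes pair the samples. Some of these pairs hold littermates F3 or M3, whose sex-linked counts go against their codes. Pairing can therefore not be excluded. With the code as a replicate block, 0 genes were called in each comparison, Psmd4 in rTg4510 against Littermate Controls had a log2 fold change of 0.0239 and Psmb7 in rTg4510+3TC against rTg4510 -0.0086. Another refit left out rTg4510+3TC F2 (thalamic markers), rTg4510 F3 (striatal markers) and littermate M2 (high myelin and low CA1 markers). It kept littermate F1 and rTg4510 M1, which also held markers of nearby tissue. In this refit Psmb6 (0.0124) and Psmd4 (0.0286) turned in rTg4510 against Littermate Controls, as did Psmb5 (-0.0340) and Psmb7 (-0.0071) in rTg4510+3TC against rTg4510. Without the 3 libraries highest in Ttr, Psmb7 in rTg4510+3TC against rTg4510 was -0.00495, and the median of both transgenic groups against Littermate Controls was -0.00936. The causes were not tested.

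Leaving out each library moved the median of the 36 genes between -0.00058 and 0.0417 in rTg4510+3TC against rTg4510, between -0.0268 and 0.0228 in rTg4510 against Littermate Controls and between 0.00025 and 0.0444 in rTg4510+3TC against Littermate Controls. The same gave Psmb7 between -0.0128 and 0.0271, Psmb5 between -0.0466 and 0.0302 and Psmd4 between -0.100 and 0.00589 in rTg4510+3TC against rTg4510, and Psmd4 between -0.0799 and 0.0267 in rTg4510 against Littermate Controls. By the longest transcript, the median level was 43.7 CPM per kb and the highest gene stood 12.5-fold over the lowest. The comparison of both transgenic groups with littermates has no fit of 8 libraries alone, and Psmb11 has no value under the filter of 1 CPM in 4 libraries. With 4 libraries per group, differences within the intervals given for each comparison could not be detected.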
